A study of Mus musculus with 48 samples.

Results

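The injury keratins and alarm proteins are 7 genes: the keratins Krt6a, Krt6b, Krt16 and Krt17, the calcium-binding proteins S100a8 and S100a9, and the protease inhibitor Stfa3. They are 7 of 18194 genes measured, and each was taken as the probe set (the array's measuring unit for a transcript) that names that symbol alone and has the highest mean over all arrays. The arrays, from Affymetrix, held RNA of skin from C3H/HeJ mice, and the series asked whether alopecia areata, an autoimmune hair loss, can be prevented by inhibiting the interleukin-15 (IL-15) pathway. From what is known of the study, il15rb (labelled IL15 in the treatment field) is a blocking antibody to the beta chain of the IL-15 receptor, jak3i is the Janus kinase inhibitor tofacitinib, jak12i is the Janus kinase inhibitor ruxolitinib, and disease in this model follows a graft of skin from an affected mouse.

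By the titles, week 13 held il15rb, jak3i and jak12i groups and their vehicle groups, PBS (phosphate-buffered saline) given ip (into the peritoneum), by pump and by gavage, with n = 3 arrays each. Week 6 held jak3i (n = 5) with PBS pump (n = 3), and jak12i (n = 5) with PBS gavage (n = 5). Week 5 held il15rb (n = 3), PBS ip (n = 4) and sham (n = 4), and the labels do not say what the sham mice received. The strain and tissue labels are the same for all groups, the labels give no age or sex, and the link of each agent to a vehicle route is known of the study and not stated in the labels. Of 48 arrays, 1 is titled PBS ip but has the treatment label IL15, and it was left out, so that 47 arrays in 13 groups remained.

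Keratins are the filament proteins of epithelial cells. Krt6a, Krt6b, Krt16 and Krt17 are little made in resting epidermis between follicles, and they are induced when skin is wounded or inflamed, which gave them the name injury keratins. Krt6a, Krt16 and Krt17 are also made in healthy hair follicles, in the companion layer and outer root sheath around the growing hair. S100a8 and S100a9 form calprotectin, an antimicrobial and alarm complex that neutrophils carry in large amounts and that stressed keratinocytes also make. Extracellular S100a8 and S100a9 are ligands of Toll-like receptor 4, and C3H/HeJ mice carry a loss-of-function mutation of its gene, Tlr4. Stfa3 is one of the mouse stefins, inhibitors of cysteine proteases inside cells. Other genes served as follicle references: Krt31, a keratin of the hair cortex that is high while hair grows, and Krt75, a keratin of the companion layer. Krt75 stayed bright where Krt31 was low. Over the 29 arrays of weeks 5 and 6 the median log2 signal was 9.15 for Krt75 and 6.13 for Krt31.

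In the mouse assembly GRCm38.p6 the genes lie in 4 clusters of related genes. Krt6b (chr15:101676023-101680293) lies next to Krt6a (chr15:101689928-101694305), in the type II keratin cluster that also holds Krt75. Krt16 (chr11:100246091-100248902) lies next to Krt17 (chr11:100256215-100261029), in the type I keratin cluster that also holds Krt31. S100a8 (chr3:90669071-90670034) and S100a9 (chr3:90692630-90695721) are neighbours on chromosome 3, and Stfa3 (chr16:36450537-36455392) lies on chromosome 16.

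Promoters were matched in RefSeq (GRCm38.p6) for 3 of the 7 members, S100a8, S100a9 and Stfa3. They are shown because S100a8 and S100a9 followed each other across the arrays of week 13 and because Stfa3 fell in all 3 treatments there, as described further on. Each runs from 250 bases before the annotated start to 50 bases after it, read 5′ to 3′ on the gene's strand, and capitals mark the matches to 5 motifs searched on both strands.
S100a8, chr3:90668821-90669120, plus strand: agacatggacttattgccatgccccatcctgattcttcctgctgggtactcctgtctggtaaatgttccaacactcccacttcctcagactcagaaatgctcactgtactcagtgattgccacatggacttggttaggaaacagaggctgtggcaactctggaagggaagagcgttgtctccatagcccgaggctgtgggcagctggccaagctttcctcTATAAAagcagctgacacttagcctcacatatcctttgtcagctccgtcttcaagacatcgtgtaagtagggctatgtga
S100a9, chr3:90695672-90695971, minus strand: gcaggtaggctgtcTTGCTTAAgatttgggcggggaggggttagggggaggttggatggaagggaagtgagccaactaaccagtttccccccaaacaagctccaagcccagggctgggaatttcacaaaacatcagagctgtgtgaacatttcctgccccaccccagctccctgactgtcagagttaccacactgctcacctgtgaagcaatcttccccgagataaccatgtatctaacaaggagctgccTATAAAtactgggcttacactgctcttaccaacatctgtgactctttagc
Stfa3, chr16:36455343-36455642, minus strand: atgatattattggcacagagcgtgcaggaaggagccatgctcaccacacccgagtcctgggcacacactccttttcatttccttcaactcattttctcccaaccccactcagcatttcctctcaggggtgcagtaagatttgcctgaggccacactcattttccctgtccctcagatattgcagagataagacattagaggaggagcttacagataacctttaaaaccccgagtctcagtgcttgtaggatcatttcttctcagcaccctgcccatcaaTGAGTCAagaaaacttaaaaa
Positions are counted from the annotated start. The S100a8 promoter held the TATA box letters TATAAA from position -30. The S100a9 promoter held a C/EBP match, TTGCTTAA, from -236 and the TATA box letters from 1. The Stfa3 promoter held an AP-1 match, TGAGTCA, from 30, and all these matches lie on the gene's strand and do not overlap. The AP-1 letters are their own reverse complement, so that match lies on the other strand as well. Of 32851 RefSeq promoters of this length, 13.6% held the TATA box letters, 10.8% the C/EBP letters TTGCNNAA and 7.81% the AP-1 letters TGANTCA. The STAT letters TTCNNNGAA (in 8.3% of promoters) and the NF-kB letters GGGA, any 4 bases, CC (in 20.7%) are not in these 3 windows.

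All values are log2 signals as deposited, so a difference of 1 is a doubling. The keratinocyte keratins Krt5, Krt14, Krt1 and Krt10 read between 11.84 and 14.37 on all 47 arrays, which fits the labelled tissue. The distribution of values differed by title week (the upper quartile of an array was 8.47 to 8.68 in week 5, 8.15 to 8.35 in week 6 and 8.68 to 8.78 in week 13), so treatments were compared with vehicle within a week. Arrays of a group correlated at r = 0.925 to 0.996 over genes. Hair growth differed between arrays of one group: Krt31 stood above 10 in sham week 5 replicate 4 and jak12i week 6 replicates 2 and 3, at 10.71, 10.76 and 10.5, while all other arrays of weeks 5 and 6 read 5.89 to 6.81. Each p-value rests on the spread among arrays that the series calls biological replicates. In whole skin fewer cells of a type and less RNA per cell cannot be told apart.

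In week 13 several members were lower in treated than in vehicle skin. Il15rb skin had 4 of the 7 members lower than PBS ip skin at an adjusted p under 0.05, where 10.6% of 13650 genes tested were called lower. Jak3i skin had 3 of 7 lower than PBS pump skin, where 6.32% of genes were called lower. Jak12i skin had 6 of 7 lower than PBS gavage skin, where 10.3% of genes were called lower. The members were chosen with earlier results of these data known. These and later counts beside the share of all genes are therefore a description and not a test. Krt16, Krt17 and Stfa3 fell in all 3 comparisons, and no member was higher in treated skin. These calls use the spread over all 13 groups. With the 2 groups of a comparison fitted alone, none of the 4 calls in il15rb skin was kept (adjusted p = 0.147 for Krt6a, 0.0722 for Krt16, 0.0568 for Krt17 and 0.0808 for Stfa3), Stfa3 was lost in jak3i skin (0.107) and Krt6a in jak12i skin (0.174), while S100a8 was gained in il15rb and jak12i skin and Krt6a in jak3i skin (0.0313). Treated and vehicle arrays did not overlap for 5, 4 and 6 members in il15rb, jak3i and jak12i skin, where 36.8%, 29.7% and 37% of genes did not overlap.

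**Figure D1:**
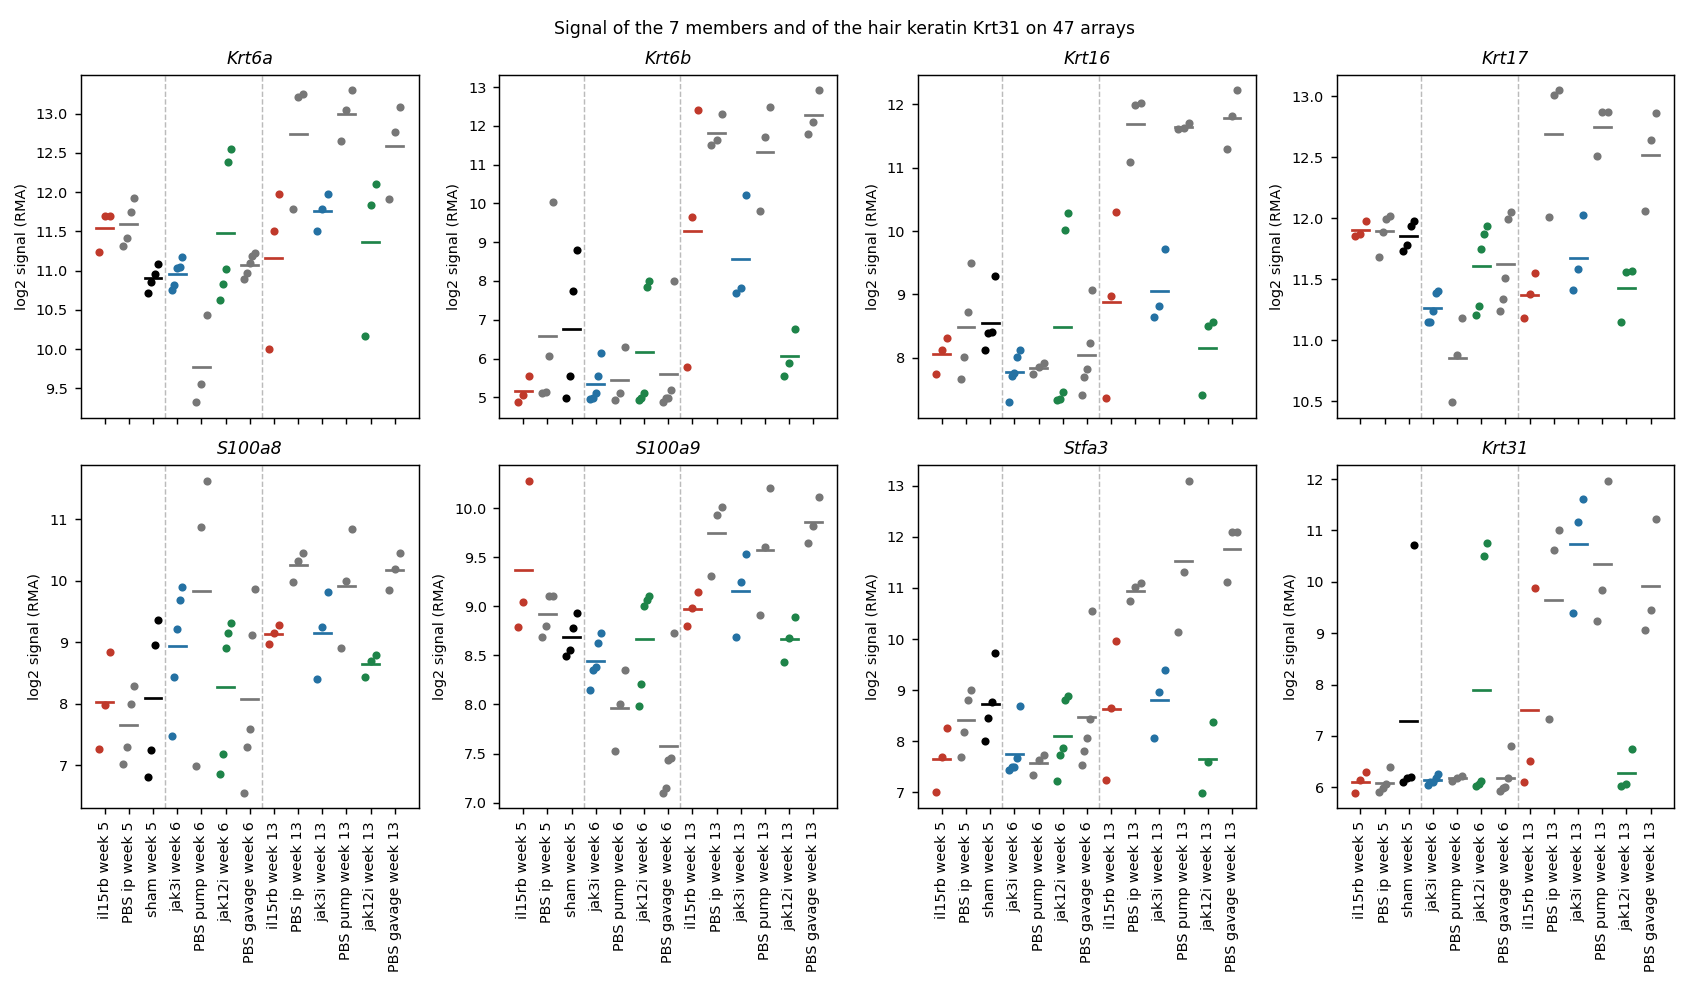
Log2 signal of the 7 members and of Krt31 (y axis) on 47 arrays in 13 groups (x axis, by title week, treated groups left of their vehicle). Points are arrays and bars are group means; the 9 vehicle arrays of week 13 read 11.08 to 12.22 for Krt16, above the 9 treated arrays at 7.37 to 10.3.

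Krt16, which pairs with keratin 6 in stressed epithelium, separated the groups of week 13 in full. It read 8.97, 10.3 and 7.37 in il15rb skin and 12.01, 11.08 and 11.99 in PBS ip skin. It read 9.71, 8.64 and 8.82 in jak3i skin and 11.7, 11.6 and 11.63 in PBS pump skin. It read 7.41, 8.51 and 8.57 in jak12i skin and 11.82, 11.29 and 12.22 in PBS gavage skin. All 9 treated arrays lay below the lowest of the 9 vehicle arrays. The changes were -2.82 ± 0.62 (SE) in il15rb skin (7.04-fold lower, adjusted p = 0.000958), -2.59 ± 0.62 in jak3i skin (6.01-fold lower, adjusted p = 0.00335) and -3.61 ± 0.62 in jak12i skin (12.2-fold lower, adjusted p = 5.93e-05). The vehicle means of the 3 routes were 11.69 ± 0.53 for PBS ip, 11.64 ± 0.05 for PBS pump and 11.78 ± 0.47 for PBS gavage (SD), within their spread of each other. Each of the 3 calls held when any 1 of its 6 arrays was left out.

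Krt17, the keratin of basal and companion cells that responds to interferon gamma in skin, fell by less but with a small error. It read 11.55, 11.38 and 11.18 in il15rb skin and 13.01, 12.01 and 13.05 in PBS ip skin. It read 11.41, 12.03 and 11.58 in jak3i skin and 12.87, 12.87 and 12.51 in PBS pump skin. It read 11.15, 11.57 and 11.56 in jak12i skin and 12.64, 12.06 and 12.86 in PBS gavage skin. Within each comparison the groups did not overlap, and 8 of 9 treated arrays lay below the lowest vehicle array of the week, PBS ip replicate 2. The changes were -1.32 ± 0.23 (SE, adjusted p = 8.35e-05), -1.08 ± 0.23 (adjusted p = 0.00126) and -1.09 ± 0.23 (adjusted p = 0.00081) in il15rb, jak3i and jak12i skin, that is 2.49-fold, 2.11-fold and 2.14-fold lower. A dimmer Krt17 probe set read -0.84, -0.78 and -0.57 in the same 3 comparisons. The 3 calls held when any 1 array was left out.

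Krt6a, the keratin 6 isoform with the brightest signal here, was high in every group. It read 11.5, 11.97 and 10 in il15rb skin and 13.21, 11.78 and 13.25 in PBS ip skin, which overlap. It read 11.5, 11.78 and 11.98 in jak3i skin and 13.3, 13.05 and 12.65 in PBS pump skin, which do not overlap. It read 10.17, 12.1 and 11.83 in jak12i skin and 12.77, 11.91 and 13.08 in PBS gavage skin, which overlap. The low vehicle arrays, PBS ip replicate 2 and PBS gavage replicate 2, lay among the treated values. Krt6a fell in il15rb skin (-1.59 ± 0.46, 3.01-fold lower, adjusted p = 0.00932) and in jak12i skin (-1.22 ± 0.46, 2.33-fold lower, adjusted p = 0.04996, at the edge of the threshold), and in jak3i skin the change was -1.24 ± 0.46 (adjusted p = 0.0569). The call in il15rb skin was lost without il15rb replicate 3 (-1.01, adjusted p = 0.137), PBS ip replicate 1 (-1.36, 0.0659) or PBS ip replicate 3 (-1.34, 0.0727). The call in jak12i skin was lost without jak12i replicate 1 (-0.62, adjusted p = 0.404), PBS gavage replicate 1 (-1.13, 0.117) or PBS gavage replicate 3 (-0.97, 0.226). The other 2 probe sets of Krt6a read -1.84 and -1.7 in il15rb skin, -1.48 and -1.49 in jak3i skin, and -1.34 and -1.29 in jak12i skin.

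Krt6b, its neighbour and close relative, ranged most widely of the members. It read 9.65, 12.4 and 5.78 in il15rb skin and 11.5, 11.64 and 12.3 in PBS ip skin, so that 1 treated array lay above every PBS ip array and 2 below. It read 7.82, 10.21 and 7.68 in jak3i skin and 11.72, 9.81 and 12.48 in PBS pump skin, with 1 array of each group inside the range of the other. It read 5.54, 6.75 and 5.89 in jak12i skin and 11.79, 12.09 and 12.92 in PBS gavage skin, far apart. Krt6b fell in jak12i skin by 6.21 ± 1.19, a 73.8-fold lower signal (adjusted p = 0.000244), and the jak12i mean of 6.06 lay below the table's median of 6.7. In il15rb skin the change was -2.54 ± 1.19 (adjusted p = 0.113) and in jak3i skin -2.77 ± 1.19 (adjusted p = 0.107). Il15rb replicate 2 set the first of these: without it the change was -4.1 (adjusted p = 0.0131), and without il15rb replicate 3 it was -0.79 (adjusted p = 0.694).

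S100a9, the larger of the alarm proteins, passed the test in 1 of the 3 comparisons of week 13. It read 8.98, 9.15 and 8.8 in il15rb skin and 9.93, 10.01 and 9.31 in PBS ip skin. It read 8.69, 9.53 and 9.25 in jak3i skin and 9.6, 8.91 and 10.21 in PBS pump skin. It read 8.43, 8.89 and 8.68 in jak12i skin and 10.11, 9.64 and 9.82 in PBS gavage skin. The groups overlapped only for jak3i. S100a9 fell in jak12i skin (-1.19 ± 0.35, 2.28-fold lower, adjusted p = 0.0137), a call lost without jak12i replicate 1 (-1.07, adjusted p = 0.0617) or PBS gavage replicate 1 (-1.06, 0.052). The changes in il15rb and jak3i skin were -0.77 ± 0.35 (adjusted p = 0.103) and -0.42 ± 0.35 (adjusted p = 0.461).

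S100a8, the partner of S100a9 in calprotectin, passed the test in no comparison. It read 8.98, 9.15 and 9.28 in il15rb skin and 10.45, 10.33 and 9.98 in PBS ip skin. It read 8.4, 9.82 and 9.25 in jak3i skin and 9.99, 8.91 and 10.84 in PBS pump skin. It read 8.8, 8.7 and 8.44 in jak12i skin and 10.46, 9.85 and 10.2 in PBS gavage skin. As with S100a9, the il15rb and jak12i arrays lay below all arrays of their vehicle and the jak3i arrays did not. The changes were -1.11 ± 0.85, -0.76 ± 0.85 and -1.52 ± 0.85 in il15rb, jak3i and jak12i skin (adjusted p = 0.352, 0.6, 0.205). These errors come from the spread over all 13 groups, which in S100a8 was wide in weeks 5 and 6. With the 2 groups of a comparison fitted alone, the fit that ended the other calls in il15rb skin, S100a8 passed in il15rb skin (-1.11 ± 0.15, adjusted p = 0.0225) and in jak12i skin (-1.52 ± 0.17, adjusted p = 0.00464) and not in jak3i skin (-0.76 ± 0.56, 0.479).

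Stfa3, the protease inhibitor, separated the groups of week 13 as Krt16 did. It read 8.66, 9.97 and 7.25 in il15rb skin and 10.75, 11.01 and 11.09 in PBS ip skin. It read 9.39, 8.96 and 8.07 in jak3i skin and 11.32, 10.14 and 13.1 in PBS pump skin. It read 6.99, 8.37 and 7.6 in jak12i skin and 11.11, 12.09 and 12.09 in PBS gavage skin. All 9 treated arrays lay below the lowest of the 9 vehicle arrays. The changes were -2.32 ± 0.65 in il15rb skin (5-fold lower, adjusted p = 0.00774), -2.71 ± 0.65 in jak3i skin (6.55-fold lower, adjusted p = 0.00341) and -4.11 ± 0.65 in jak12i skin (17.3-fold lower, adjusted p = 2.11e-05). The call in il15rb skin was lost without il15rb replicate 3 (-1.63, adjusted p = 0.0984), and that in jak3i skin without PBS pump replicate 3 (-1.92, 0.0525).

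**Figure D2:**
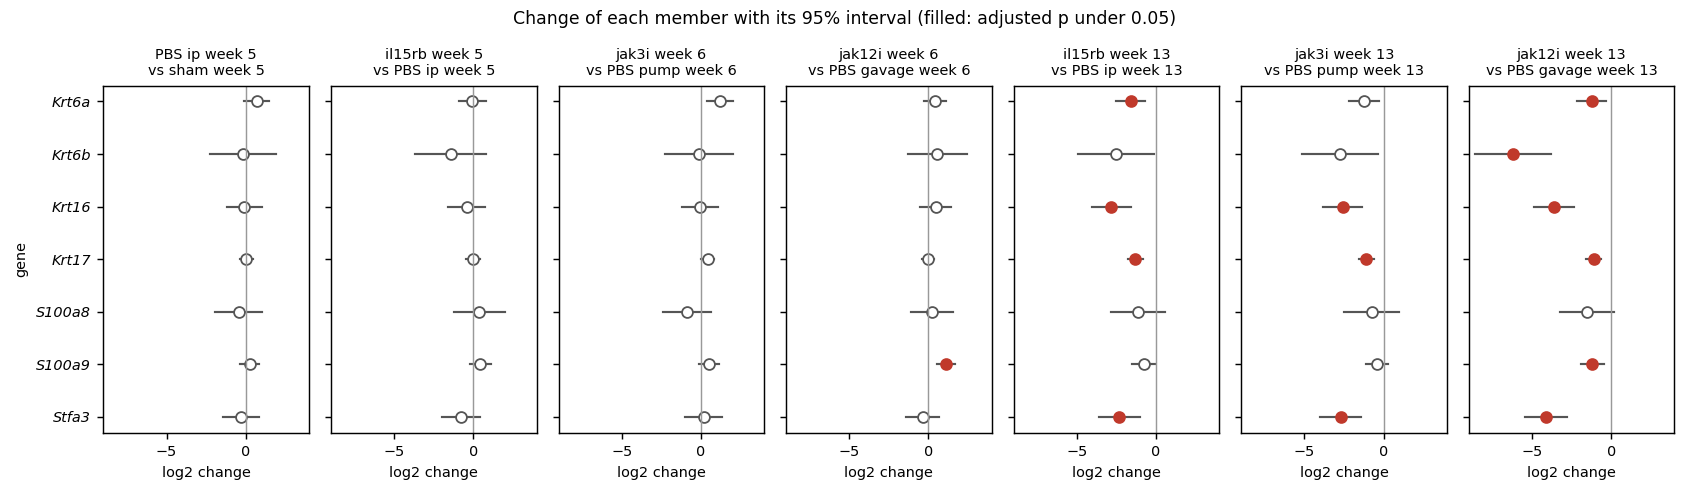
Log2 change of each member (points) with its 95% interval (lines) in the 7 comparisons, x axis in log2 units and filled points at an adjusted p under 0.05. Filled points stand on the lower side for 4, 3 and 6 members in il15rb, jak3i and jak12i skin of week 13, and the only other one is S100a9, higher in jak12i skin of week 6.

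The treatments of week 13 were then set against each other through the difference of their changes from vehicle. No member passed this test for il15rb minus jak3i, il15rb minus jak12i or jak12i minus jak3i, where 0.00733% of genes were called in each. The widest differences were in Krt6b, at 3.67 (95% interval 0.27 to 7.07, adjusted p = 0.772) for il15rb minus jak12i and -3.44 (-6.84 to -0.04, adjusted p = 0.75) for jak12i minus jak3i. For Krt17 the 3 differences lay between -0.24 and -0.02, with intervals inside -0.91 to 0.65. At an unadjusted p under 0.05, Krt6b alone passed in both comparisons with jak12i and no member passed for il15rb minus jak3i.

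In weeks 5 and 6 few members differed between groups, and only Krt6b had a median over both weeks below the table's median of 6.7. PBS ip against sham in week 5 called no member (0 of 7 at an unadjusted p under 0.05 too), with 0.0293% of genes called, and il15rb against PBS ip in week 5 also called no member (0 of 7 unadjusted), with 0.0733% called. Krt6a, at 11.41, 11.31, 11.93 and 11.75 in PBS ip skin and 10.96, 10.86, 10.71 and 11.08 in sham skin, was the 1 member whose PBS ip and sham arrays did not overlap (4.2% of genes did not), with a change of 0.7 ± 0.39. Over the 29 arrays of both weeks Krt16 had a lowest, median and highest value of 7.3, 8.02 and 10.28, and Stfa3 of 7, 7.87 and 10.54. Krt6b had 4.87, 5.12 and 10.03, with the highest in PBS ip week 5 replicate 3, where Krt31 read 5.99. Krt17 stayed bright, with 10.49, 11.73 and 12.05, and so did Krt6a, with 9.32, 11.04 and 12.55. S100a8 was the most scattered alarm gene, with 6.55, 8.29 and 11.63, and S100a9 had 7.1, 8.63 and 10.28.

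Jak3i against PBS pump in week 6 called no member (1 of 7 at an unadjusted p under 0.05), where 4.1% of genes were called. That 1 was Krt6a, which read 11.17, 10.82, 11.04, 11.03 and 10.75 in jak3i skin and 10.43, 9.56 and 9.32 in PBS pump skin. The groups did not overlap (9.13% of genes did not), and the change was 1.19 ± 0.41 (adjusted p = 0.0955), opposite in sign to week 13. Without PBS pump replicate 1, Krt6a passed (1.52, adjusted p = 0.0364), as did S100a8 on the lower side (-2.31, adjusted p = 0.0494). S100a8 read 9.9, 9.22, 7.47, 9.69 and 8.44 in jak3i skin and 6.98, 11.63 and 10.88 in PBS pump skin, the last 2 being the highest of all 47 arrays.

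Jak12i against PBS gavage in week 6 called 1 member, S100a9, higher, where 1.49% of genes were called higher. S100a9 read 9.11, 9, 9.06, 8.21 and 7.98 in jak12i skin and 7.43, 7.46, 7.1, 7.15 and 8.73 in PBS gavage skin. The groups overlap through PBS gavage replicate 5, and the other 4 PBS gavage arrays lay below every jak12i array. The change was 1.1 ± 0.27 (2.14-fold higher, adjusted p = 0.00798), and it stayed called when any 1 array was left out. Without the arrays of high Krt31, jak12i replicates 2 and 3 among them, it was 0.86 ± 0.32 (adjusted p = 0.111), and with the 2 groups fitted alone it was 1.1 ± 0.34 (adjusted p = 0.0891). The change in jak12i skin minus that in jak3i skin of week 6 was called for no member (0 of 7 at an unadjusted p under 0.05 as well), where 2.37% of genes were called. Jak12i replicates 2 and 3 also held the highest Krt6a of weeks 5 and 6, at 12.55 and 12.38, and the highest Krt16, at 10.28 and 10.02.

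The changes of week 13 differed from those of the earlier week for some members, which was tested as the difference of the 2 changes. For il15rb, week 13 minus week 5, 1 of 7 members was called lower, where 4.07% of genes were: Krt17, by -1.32 ± 0.32 (adjusted p = 0.00694). For jak3i, week 13 minus week 6, 4 of 7 were called lower, where 3.01% were: Krt6a (-2.44 ± 0.61), Krt16 (-2.54 ± 0.83), Krt17 (-1.49 ± 0.31) and Stfa3 (-2.9 ± 0.87). For jak12i, week 13 minus week 6, 6 of 7 were called lower, where 5.56% were, all but S100a8. The largest of these were Krt6b at -6.77 ± 1.5 and Krt16 at -4.06 ± 0.78 (adjusted p = 0.00232, 0.000626). In jak3i skin the calls rested on few arrays: Krt16 stayed called only without jak3i week 6 replicate 5 or jak3i week 13 replicate 1, with values of -2.58 to -2.33 and an adjusted p up to 0.114 without any 1 of the other 12 arrays. Stfa3 lost its call without PBS pump week 6 replicate 2 (-2.98, adjusted p = 0.0536) or 3 (-2.79, 0.0684), jak3i week 13 replicate 3 (-2.53, 0.109) or PBS pump week 13 replicate 3 (-2.11, 0.145). In jak12i skin Krt6a stayed called in 7 of 16 fits that left out 1 array, and Krt17 lost its call without PBS gavage week 13 replicate 3 (-0.91, adjusted p = 0.062). In il15rb skin Krt16 was called too without PBS ip week 5 replicate 3 (-2.74, adjusted p = 0.0402), and with Krt6a without il15rb week 13 replicate 2 (Krt16 -3.11, Krt6a -1.94) or PBS ip week 13 replicate 2 (-2.71, -2.01). With Krt31, the hair cortex gene, as a covariate, no member passed for jak12i (Krt6b -3.17, adjusted p = 0.236, Krt16 -2.37, 0.0871).

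The relation to Krt31 was used to describe which members varied with hair growth. A slope on Krt31, with each group given its own mean, asks whether a gene is high on the same arrays of a group as the hair cortex. It was called, on the higher side, for 4 of 7 members, where 5.07% of 13649 genes were: Krt6b (0.67 ± 0.14 per unit of Krt31, adjusted p = 0.00125), Krt16 (0.32 ± 0.08, 0.00646), Stfa3 (0.3 ± 0.08, 0.0194) and Krt6a (0.24 ± 0.06, 0.00421). It was not called for Krt17 (0.08 ± 0.03, adjusted p = 0.112), S100a8 (0.23 ± 0.12, 0.269) or S100a9 (0.11 ± 0.05, 0.181). Follicle genes, a reference that shares the growing hair with Krt31, mostly had steeper slopes. All 10 hair shaft keratins tested were called higher with a median of 0.91, and all 9 companion layer and inner root sheath genes with a median of 1.08. Not all were steeper: the hair shaft keratins Krt36 (0.23 ± 0.02) and Krt84 (0.24 ± 0.04) had slopes near that of Krt6a. Krt75 itself had 0.3 ± 0.06, near the slopes of Krt6a, Krt16 and Stfa3. None of 10 suprabasal epidermis genes was called, and 2 of 7 basal epidermis genes, Col17a1 (-0.08 ± 0.02) and Itgb4 (-0.06 ± 0.02), were called lower. Of 9 barrier alarm and antimicrobial genes 5 were called higher, among them Tgm3 (0.23 ± 0.04), Sprr1a (0.3 ± 0.06) and Sprr2h (0.38 ± 0.08). The slope alone does not place a gene in follicle or epidermis, and where the members were made was not tested.

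The slopes rested in part on single arrays. Without sham week 5 replicate 4 and jak12i week 6 replicates 2 and 3, Krt6b alone was called (0.74 ± 0.23, adjusted p = 0.0376), and Krt6a, Krt16 and Stfa3 kept slopes of 0.24, 0.26 and 0.33 (adjusted p = 0.082, 0.129, 0.129). In week 6 alone Krt6a (0.36), Krt6b (0.71) and Krt16 (0.63) were called, and in weeks 5 and 13 alone no member was. With Krt75 in place of Krt31, Krt6a alone was called (0.58 ± 0.11, adjusted p = 0.0015). Over the 18 arrays of week 13, with group means removed, Pearson's r with Krt31 lay between 0.36 (S100a9) and 0.64 (Krt6b, Spearman's rho 0.6, permutation p = 0.0299, adjusted p = 0.126 over 21 relations, r without the 2 farthest arrays 0.59), and no relation of week 13 passed the adjustment. In weeks 5 and 6 Krt31 fell into separate clusters of low and high arrays, so no pooled r is given.

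**Figure D3:**
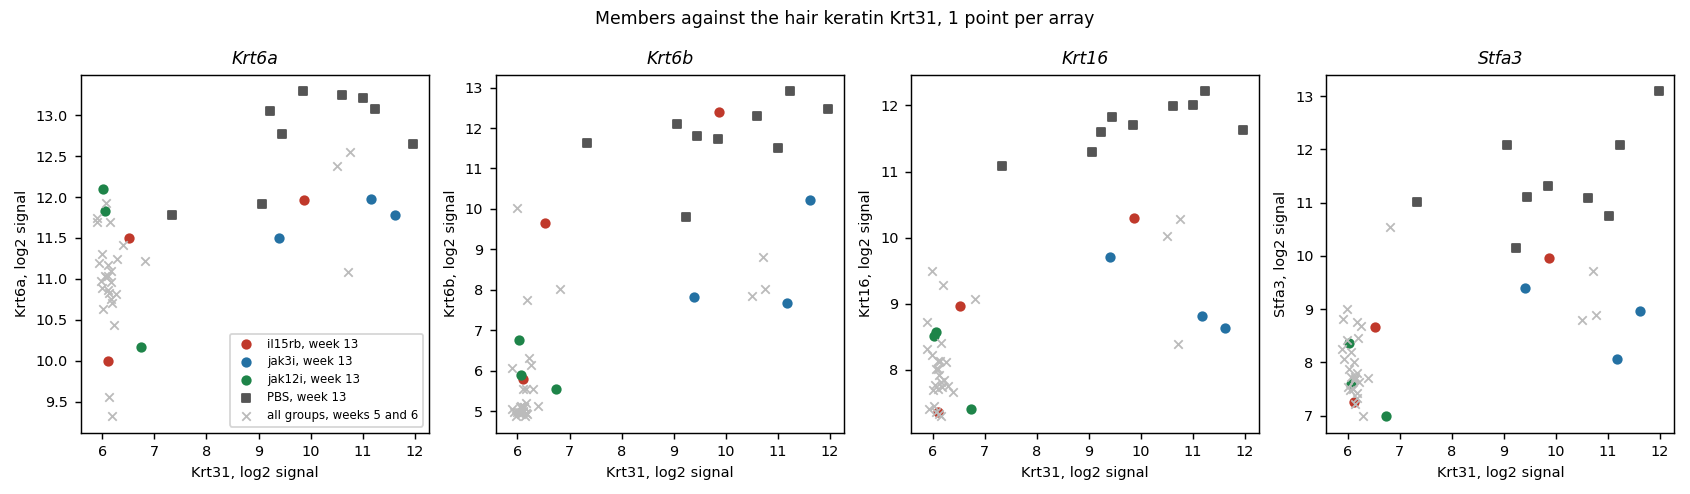
Krt6a, Krt6b, Krt16 and Stfa3 (y axes) against Krt31 (x axes), log2 signal, 1 point per array, treated groups in colour and PBS as squares in week 13, all groups of weeks 5 and 6 as crosses. For Krt16 the squares lie at 11.08 to 12.22 over Krt31 values of 7.33 to 11.97, above all coloured points.

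A few arrays of week 13, chosen after their values were seen, show how the members and Krt31 varied. PBS ip replicate 2 had the lowest Krt31 of the 9 vehicle arrays, 7.33, and the lowest Krt75 of week 13, 7.24. Its Krt16 (11.08), Krt6a (11.78) and Krt17 (12.01) were also the lowest of the 9 vehicle arrays, while its Krt6b (11.64) and Stfa3 (11.01) were not. Jak3i replicates 2 and 3 had Krt31 at 11.62 and 11.17 and Krt75 at 10.55 and 10.71, as high as in vehicle skin. They read 8.64 and 8.82 for Krt16 and 8.96 and 8.07 for Stfa3, below all 9 vehicle arrays. For Krt6a (11.78 and 11.98), S100a8 (9.82 and 9.25) and S100a9 (9.53 and 9.25) both lay within the range of the vehicle arrays. For Krt6b (10.21 and 7.68) and Krt17 (12.03 and 11.58) replicate 2 did and replicate 3 did not. In the 3 comparisons Krt31 itself changed by -2.15 ± 1.11 in il15rb skin (adjusted p = 0.154), 0.38 ± 1.11 in jak3i skin (0.865) and -3.64 ± 1.11 in jak12i skin (adjusted p = 0.0162), and Krt75 was called in none, at -0.18, 0.34 and -0.41. Of the 9 companion layer and inner root sheath genes, Krt75 among them, 6 were called lower in jak12i skin, where 10.3% of genes were. The list's median change there was -3.96. In il15rb and jak3i skin 0 of the 9 were called, with medians of -2.01 and 0.04.

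With Krt31 as a covariate, which compares treated with vehicle skin at equal Krt31, Krt16, Krt17 and Stfa3 still fell in all 3 comparisons of week 13. In il15rb skin they read -2.14, -1.14 and -1.68 (adjusted p = 0.00532, 0.000573, 0.0446), and Krt6a read -1.07 (adjusted p = 0.0529). In jak3i skin they read -2.71, -1.11 and -2.82 (adjusted p = 0.000236, 0.000333, 0.000421), and Krt6a (-1.33, adjusted p = 0.0103) and Krt6b (-3.02, 0.0202) were called as well. In jak12i skin they read -2.46, -0.79 and -3.02 (adjusted p = 0.00628, 0.0418, 0.00226), Krt6b read -3.76 (0.0233), and Krt6a (-0.35, adjusted p = 0.724) and S100a9 (-0.79, 0.232) were no longer called. In jak12i skin Krt31 did not overlap with PBS gavage skin, so there the covariate extends the slope of other groups. Il15rb skin overlapped with PBS ip skin in Krt31 only through replicate 2 (9.87). Replicates 1 and 3 of il15rb read 6.52 and 6.11, below the lowest PBS ip array at 7.33. That comparison therefore leans on the slope as well. With week 13 fitted alone, a setting added after seeing the data, the covariate left 2, 4 and 0 members called in il15rb, jak3i and jak12i skin, and Krt16 then read -2.28, -2.68 and -2.7 (adjusted p = 0.0322, 0.00397, 0.0826).

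**Figure D4:**
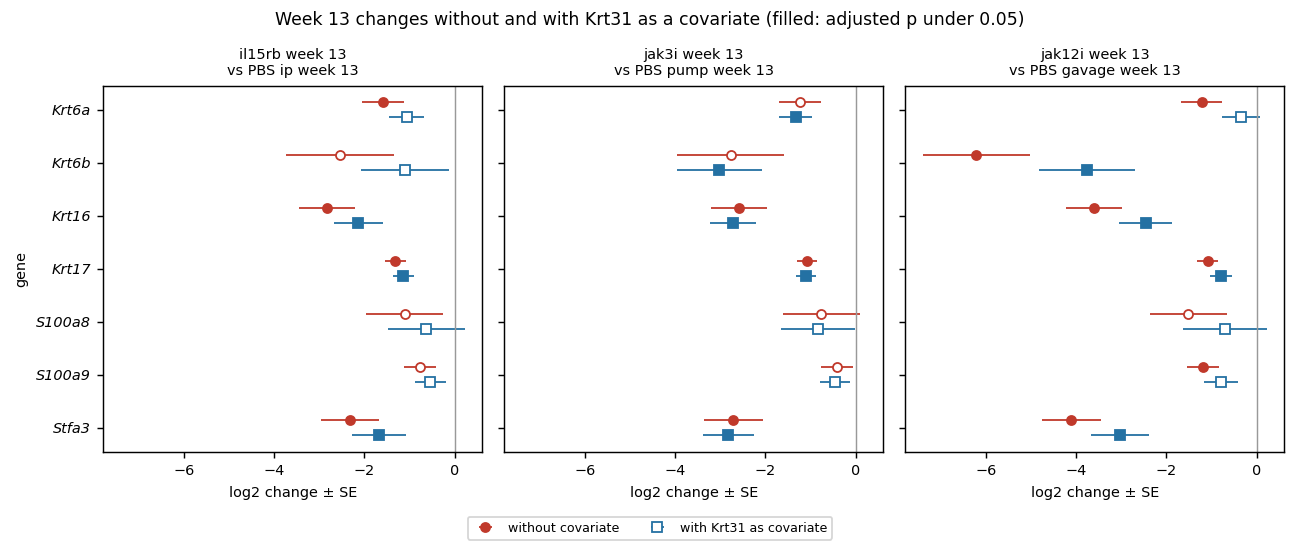
Week 13 change of each member from vehicle (log2 units, x axis, with SE) without a covariate (circles) and with Krt31 as a covariate (squares), filled at an adjusted p under 0.05. Krt16, Krt17 and Stfa3 are filled in both settings in all 3 panels, while Krt6a in jak12i skin moves to -0.35.

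Within groups of week 13 some members varied together by Pearson's r, and no pair passed the adjustment by Spearman's rho. With group means removed, 4 of 21 member pairs passed an adjusted permutation p of 0.05 by Pearson's r: S100a8 with S100a9 (r = 0.88, rho = 0.72, adjusted p = 0.0353, n = 18), Krt6a with Krt16 (r = 0.81, rho = 0.81, 0.0353), Krt6b with Stfa3 (r = 0.8, rho = 0.76, 0.0475) and Krt6a with Krt17 (r = 0.77, rho = 0.72, 0.0321). By Spearman's rho the adjusted permutation p of these pairs was 0.0692, 0.0562, 0.0622 and 0.0562. Without the 2 arrays farthest from the median of the first gene, r was 0.75, 0.69, 0.7 and 0.82. For S100a8 with S100a9, r was 0.16 in week 5 (permutation p = 0.674, n = 11), 0.12 in week 6 (0.686, n = 18) and 0.88 in week 13 (adjusted permutation p = 0.0105 over the 3 weeks), and the difference between weeks was not tested. All arrays of a week share their processing, and the 18 points share the removal of 6 group means.

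**Figure D5:**
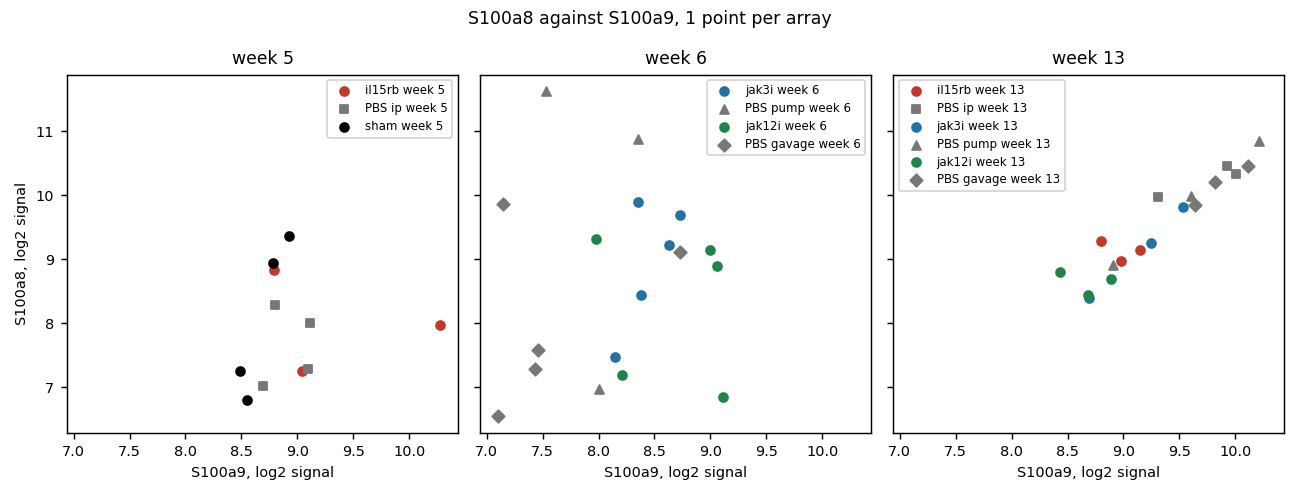
S100a8 (y axis) against S100a9 (x axis), log2 signal, 1 point per array, in weeks 5, 6 and 13, treated groups as coloured circles. The week 13 arrays lie along a line between 8.4 (jak3i replicate 1) and 10.84 in S100a8. Its lower end holds the il15rb and jak12i arrays, jak3i replicates 1 and 3, and PBS pump replicate 2 at 8.91. The week 6 arrays do not lie along a line.

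Neutrophils are the main other source of S100a8, S100a9 and stefins, so their markers were read on the same arrays. Of 16 neutrophil genes listed, 14 were measured and 9 passed the filter on low values, and Elane, Camp, Mmp8, Clec4e and Cxcl2 lay below the table's median on all 47 arrays. In week 13, 2 of the 9 were higher and 1 lower in il15rb skin (Il1r2 at 1.21 ± 0.28 and Mmp9 at 0.55 ± 0.19 higher, Cxcr2 at -0.48 ± 0.14 lower), 0 changed in jak3i skin (0 at an adjusted p under 0.05 by limma), and 1 was higher and 3 lower in jak12i skin. In the same order, 15.1%, 9.66% and 11.6% of all genes were called higher and 10.6%, 6.32% and 10.3% lower. A count of 1 of 9 is about such a share. The list's summed level ranged over 11.47 to 11.85 in il15rb skin and 10.64 to 11.14 in PBS ip skin, 10.97 to 11.59 in jak3i skin and 10.64 to 11.48 in PBS pump skin, and 11.14 to 11.8 in jak12i skin and 10.83 to 10.92 in PBS gavage skin. Il1r2, the brightest gene of the list, weighs most in this sum, and with it the treated arrays of il15rb and jak12i skin lay above all their vehicle arrays. Without it the sums were 9.54 to 10.45 in il15rb skin and 9.67 to 9.87 in PBS ip skin, 9.53 to 10.65 and 9.69 to 9.86 in jak3i and PBS pump skin, and 9.52 to 9.92 and 9.77 to 9.96 in jak12i and PBS gavage skin, and the groups overlap in each. The genes called lower in jak12i skin were Ngp (-0.4 ± 0.15), Cxcr2 (-0.38 ± 0.14) and Csf3r (-0.45 ± 0.17), with group means of 6.14 to 6.33 in jak12i skin and 6.52 to 6.78 in PBS gavage skin, near the table's median. The part of neutrophils in the changes of S100a8, S100a9 and Stfa3 was not tested.

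Other cell types moved with the treatments of week 13. Of all genes, 10.6%, 6.32% and 10.3% were called lower in il15rb, jak3i and jak12i skin, and 15.1%, 9.66% and 11.6% higher. T cell genes fell, 7 of 7 tested in il15rb skin, 6 of 7 in jak3i skin and 4 of 7 in jak12i skin (Cd8a -2.17 ± 0.2, -2.4 ± 0.2 and -1.88 ± 0.2), and the list's mean level ranged over 6.75 to 7.29 in the treated groups and 7.88 to 8.57 in the vehicle groups. Adipocyte genes rose in 5, 3 and 5 of 5 (list mean level 10.28 to 11.37 in treated and 8.84 to 10.04 in vehicle groups), and skeletal muscle genes rose in 7, 1 and 0 of 7. Sebaceous gland genes rose in 3 of 5 in each comparison (Mgst1 0.57 ± 0.09, 0.36 ± 0.09 and 0.59 ± 0.09), with a list mean level of 11.13 to 11.85 in treated and 10.15 to 11.24 in vehicle groups. The muscle list read 12.38 to 13.85 in the treated groups and 7.43 to 13.01 in the vehicle groups, with PBS ip replicate 3 and PBS pump replicate 2 below 8. Without these 2 arrays and PBS gavage week 6 replicate 5, Krt6a was no longer called in il15rb skin (-1.34, adjusted p = 0.0736), S100a9 was (-0.99, 0.0315), and no other call of the members in il15rb or jak3i skin of week 13 changed. Cell division genes fell in 8 of 9 in jak12i skin and in none in il15rb or jak3i skin, and hair shaft keratins in 9, 0 and 0 of 11 in jak12i, il15rb and jak3i skin. The part of T cells, fat, sebaceous glands, muscle or cell division in the members' changes was not tested.

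Genes that act with the members in a stressed barrier followed in part. Of 19 barrier alarm and antimicrobial genes listed, 9 were tested, and 5, 1 and 6 fell in il15rb, jak3i and jak12i skin of week 13, with list medians of -1.51, -0.74 and -1.49 against 0.01, 0.03 and 0.02 over all genes. The shares of all genes called lower were 10.6%, 6.32% and 10.3%. Slpi, a secreted protease inhibitor of inflamed skin, fell in all 3 (-1.51 ± 0.27, -1.37 ± 0.27 and -1.49 ± 0.27). Sprr1a, a cornified envelope precursor, fell in il15rb skin (-2.43 ± 0.5) and in jak12i skin (-2.19 ± 0.5). Sprr1b and Sprr2d, of the same family, fell in jak12i skin (-4.59 ± 0.83 and -3.13 ± 0.47) and in il15rb skin (-2.76 ± 0.83 and -1.37 ± 0.47). In jak3i skin Sprr2d read -1.23 ± 0.47 (adjusted p = 0.0729).

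Of the other stefins and cystatins, 3 of 11 listed were tested, and Cstb and Cst6, epithelial cysteine protease inhibitors, fell in all 3 comparisons, with Cstb at -1.07 ± 0.17, -0.81 ± 0.17 and -1.11 ± 0.17, and Cst6 at -1 ± 0.19, -0.58 ± 0.19 and -0.56 ± 0.19 in il15rb, jak3i and jak12i skin. Csta1, the other gene tested, was called in none of them (-0.21 ± 0.22 in jak12i skin, adjusted p = 0.537). The shares of all genes called higher in week 13 were 15.1%, 9.66% and 11.6% in il15rb, jak3i and jak12i skin, so 1 gene of 9 called higher is about the share over all genes. The shares called lower were 10.6%, 6.32% and 10.3%. Of 9 other S100 genes tested, 2 fell and 1 rose in il15rb skin, 0 and 1 in jak3i skin, and 2 and 1 in jak12i skin. S100b, a gene of Schwann cells, adipocytes and other cells, was the one that rose (0.54 ± 0.15, 1.05 ± 0.15 and 0.87 ± 0.15). S100a14 and S100a16, which epithelia make, fell in il15rb skin (-0.51 ± 0.14 and -0.48 ± 0.12) and in jak12i skin (-0.4 ± 0.14 and -0.43 ± 0.12).

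Of 19 cytokines and growth factors listed, 11 were tested. In il15rb skin 3 fell and 1 rose, in jak3i skin 2 fell and 2 rose, and in jak12i skin 3 fell. Over all genes 10.6%, 6.32% and 10.3% were called lower in these comparisons, and 15.1%, 9.66% and 11.6% higher. Il1b and Tnf, inflammatory cytokines, fell in all 3, with Il1b at -0.79 ± 0.23, -0.83 ± 0.23 and -0.69 ± 0.23, and Tnf at -0.74 ± 0.14, -0.66 ± 0.14 and -0.58 ± 0.14. Tslp, an epithelial cytokine, rose in il15rb skin (1.02 ± 0.26) and jak3i skin (1.1 ± 0.26). Whether any of these cytokines acted on the members was not tested. Of 15 receptors and signalling genes, 1 rose in each comparison, a smaller share than over all genes. It was Il20ra, a receptor chain for the interleukin-20 family (1.09 ± 0.24, 0.78 ± 0.24 and 1.3 ± 0.24). In jak3i skin 4 fell, among them the transcription factor Stat3 (-0.48 ± 0.11) and the NF-kB cofactor Nfkbiz (-0.79 ± 0.17), in il15rb skin 1 fell, Cebpb (-0.37 ± 0.14), and in jak12i skin none did.

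Of 7 basal epidermis genes, 1 rose and 2 fell in il15rb skin of week 13, 1 and 0 in jak3i skin, and 3 and 1 in jak12i skin. In the same order, 15.1%, 9.66% and 11.6% of all genes were called higher and 10.6%, 6.32% and 10.3% lower. A count of 1 gene in these short lists is about such a share. Krt15, a keratin of basal cells and of the follicle bulge, rose in all 3 comparisons (0.75 ± 0.19 in il15rb, 0.82 ± 0.19 in jak3i and 1.31 ± 0.19 in jak12i skin). Krt14, the basal partner keratin, fell in il15rb skin (-0.37 ± 0.13) and jak12i skin (-0.52 ± 0.13), while Col17a1 (0.72 ± 0.16) and Itgb4 (0.44 ± 0.14) rose in jak12i skin. Of 10 suprabasal genes, 1 rose in il15rb skin, Lor (0.37 ± 0.13), 0 changed in jak3i skin, and 2 fell in jak12i skin, the differentiation keratin Krt1 (-0.7 ± 0.19) and the barrier protein gene Flg (-1.62 ± 0.3).

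Genes outside the 7 members were ranked by their likeness to each member, as Pearson's r over the 47 arrays with group means removed, as a description. Among the members themselves, Krt6b had r = 0.76 with Stfa3 and 0.73 with Krt16. Krt6b was most like Sprr1b (0.85), Sprr2h (0.78) and Klk6 (0.73), and Krt16 most like Klk6 (0.84), Ehf (0.81) and Pinlyp (0.77). Krt6a was most like Fam167a (0.86), Pfkp (0.83) and Cxcl14 (0.82), and Krt17 like Endod1, Plet1 and Epcam (0.85 each). Stfa3 was most like Nudt21 (0.8), Esco2 (0.77) and Chek2 (0.77), the last 2 being genes of dividing cells. S100a8 (Gadd45a 0.72, Ankzf1 0.65, Tubb6 0.63) and S100a9 (Sprr2d 0.55, Bid 0.54, Tmem229a 0.53) were less like any other gene, and neither was among the other's 10 most alike.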

How the data were processed

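Per the submitters' processing notes, the authors made the values with RMA (version not given), and the deposited log2 values (45101 probe sets, 48 arrays) were taken unchanged. Whether all arrays were normalized together is not stated. RNA was extracted with DNase digestion and labelled with biotin, per the labels. For arrays, the number of arrays limits the precision. Groups came from the titles. Probe sets naming 1 gene symbol numbered 34958, with 932 naming several and 9211 none, and 34754 symbols were updated through the Entrez identifier. A probe set naming Krt17 and Krt14 was not used. A gene entered the tests when 3 or more arrays exceeded 6.7, the median of the table, which left 13650 genes and all 7 members. Krt6b passed in 21 of 47 arrays, S100a8 in 46 and the other 5 members in 47.

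Limma 3.58.1 (R 4.3.3) gave each group its mean over the 47 arrays, moderated variances by empirical Bayes, and called genes at 0.05 after Benjamini-Hochberg adjustment within each comparison. Correlations used deviations from group means and 100000 permutations within groups, two-sided. The members and gene lists were chosen with earlier results of these data known. Named are all members, Krt31 and Krt75, per list up to 3 called genes of smallest p (otherwise up to 2 as values), and the 3 genes most like each member. Cxcr2, Ngp, Csf3r, Clec4e, Cxcl2, Itgb4, Col17a1, Csta1, Krt36 and Krt84 were named beside counts. Replicate numbers did not pair arrays: arrays of equal number correlated between -0.492 and 0.236 with group means removed. The fits were tested on simulated data. Alternatives were another scaling, filter, probe set rule, vehicle set, placement of the array with conflicting labels, Krt31 as a covariate, array weights, a replicate block and arrays left out.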

Additional observations from a re-analysis of the deposited data

Results flagged for a closer look

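Of 35 sets of values (7 members in each of the 5 groups of 4 or 5 arrays), 3 held an array whose gap to the others was a large share of the group's range, where chance gives about 1 in 20. PBS gavage week 6 replicate 5 read 8.01 for Krt6b, with the other 4 arrays at 4.87 to 5.2, and 8.73 for S100a9, with the others at 7.1 to 7.46. The same array read 10.54 for Stfa3, the highest of weeks 5 and 6, and 6.81 for Krt31. Jak3i week 6 replicate 2 read 8.69 for Stfa3, with the others at 7.43 to 7.67.

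The change from vehicle differed between weeks, by the test of the difference itself, for 11 member results. For il15rb, week 13 minus week 5, this was Krt17 (-1.32). For jak3i, week 13 minus week 6, these were Krt6a (-2.44), Krt16 (-2.54), Krt17 (-1.49) and Stfa3 (-2.9). For jak12i, week 13 minus week 6, these were Krt6a (-1.62), Krt6b (-6.77), Krt16 (-4.06), Krt17 (-1.08), S100a9 (-2.29) and Stfa3 (-3.74). S100a9 in jak12i skin was called higher in week 6 and lower in week 13.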

How the results depend on the processing

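Members called, 4, 3 and 6 in il15rb, jak3i and jak12i skin of week 13, ranged over 2 to 5, 2 to 3 and 4 to 6 when 1 array was left out. The count ranged over 0 to 2 for jak3i week 6 (0 with all arrays), 1 to 3, 2 to 4 and 4 to 6 for the differences between weeks in il15rb, jak3i and jak12i skin (1, 4 and 6), and stayed at 0 in both week 5 comparisons and at 1 in jak12i week 6. With a replicate block the counts were 4, 3 and 5 in week 13, Krt6a being lost in jak12i skin (adjusted p = 0.0646) and in its difference between weeks (0.0628), and no other call changed. With Krt31 as a covariate the count was 1 for jak3i week 6, 5 for jak3i week 13 and 0 for the jak12i difference between weeks. With Krt31 as a covariate and week 13 alone, it was 2 for il15rb and 0 for jak12i. Against all vehicles of the week it was 1 for jak3i week 6 (S100a9, 0.68), 2 for jak12i week 6 (with Krt6a, 1.06), 6 for il15rb week 13 (with Krt6b, -2.53, and S100a9, -0.75) and 5 for jak3i week 13. With the 2 groups alone it was 1 for jak3i week 6 (Krt6a, 1.19), 0 for jak12i week 6 and 1 for il15rb week 13 (S100a8, all 4 other calls being lost), and array weights gave 1 for jak3i week 6. The il15rb difference between weeks had 2 members after quantile normalization, 2 with the array of conflicting labels as PBS ip or as il15rb, and 4 with array weights. Without the 3 arrays of high hair shaft signal, jak12i week 6 had 0 members and the slope on Krt31 had 1. The slope had 0 members in week 5 alone, 0 in week 13 alone and 1 with Krt75 in place of Krt31, and the slope of Krt16 turned to -0.08 in week 5 alone. Where fewer arrays or fewer groups entered, the fit had less to estimate the spread from. Otherwise the cause was not tested. Of 2149 member values under alternatives, 103 had the opposite sign and were called in neither setting, and 1, the Krt16 slope above, was a called value that turned. Krt6a in jak12i skin of week 13 lost its call under array medians subtracted (adjusted p = 0.052), no filter (0.0585) and array weights (0.0756).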

Other observations

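The array titled PBS ip week 5 replicate 1 and labelled IL15, which belongs to no group, read 11.89 for Krt6a, 5.18 for Krt6b, 8.01 for Krt16, 11.89 for Krt17, 8.45 for S100a8, 9.65 for S100a9 and 7.79 for Stfa3, with Krt31 at 6.18 and Krt75 at 9.24.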
